A study of Rattus norvegicus with 12 samples.

Results

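Cytokine mRNA decay factors are 5 genes, Zfp36, Zfp36l1, Zfp36l2, Zc3h12a and Elavl1, whose proteins bind the messages of inflammatory genes and set how long they last. The members were chosen by gene symbol: 9 of the 31042 probe sets carried the symbol of a member in the annotation of the array, and at gene level all 5 members were among the 14217 genes tested. Lung tissue of male wild type Sprague Dawley rats weighing 250 to 350 g was measured on Affymetrix arrays, 1 array per sample, with 3 samples in each of 4 groups. Sham animals are the controls. In BD animals brain death was brought about by inflating a Fogarty balloon catheter (4 Fr.) placed outside the dura. SEW animals had an intravenous injection of SEW-2871, an agonist of the S1P1 receptor for sphingosine 1-phosphate, at 0.1 mg/kg, and in BD/SEW animals the same dose followed brain death by 15 min. The labels give no age, do not say whether SEW animals had the sham operation, and do not say whether the 3 samples of a group came from separate animals, so a p-value here reflects how far these samples spread, which may be technical.

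Tristetraprolin, the protein of Zfp36, and its paralogs encoded by Zfp36l1 and Zfp36l2 bind AU-rich elements in the tails of cytokine messages through a pair of CCCH zinc fingers and recruit the CCR4-NOT complex, which shortens the poly(A) tail. Regnase-1, the protein of Zc3h12a, is an endonuclease that cleaves messages at stem-loops in the same region. HuR, the protein of Elavl1, binds AU-rich and U-rich elements and mostly stabilises the message. Zfp36 and Zc3h12a are both induced by inflammatory signals and act back on them. The arrays measured the mRNA of these genes, whereas phosphorylation of tristetraprolin and cleavage of Regnase-1 also set their activity and were not measured.

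The 250 bases before the transcription start are shown for 3 members, Zfp36 and Zc3h12a because their mRNA changed, and Zfp36l1 as a paralog of Zfp36 that was not called in any comparison. All 5 members had an entry in the RefSeq promoter table (assembly GRCr8). Capitals mark matches to the motifs listed after the sequences, except the short cyclic AMP motif, and the last base of each sequence lies next to the start.
Zfp36, chr1:92799109-92799358, minus strand: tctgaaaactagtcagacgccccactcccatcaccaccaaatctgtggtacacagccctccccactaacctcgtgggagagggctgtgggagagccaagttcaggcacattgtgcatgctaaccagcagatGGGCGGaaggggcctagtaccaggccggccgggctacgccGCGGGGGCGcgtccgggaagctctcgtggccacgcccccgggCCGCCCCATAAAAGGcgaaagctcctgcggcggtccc
Zc3h12a, chr5:142669986-142670235, minus strand: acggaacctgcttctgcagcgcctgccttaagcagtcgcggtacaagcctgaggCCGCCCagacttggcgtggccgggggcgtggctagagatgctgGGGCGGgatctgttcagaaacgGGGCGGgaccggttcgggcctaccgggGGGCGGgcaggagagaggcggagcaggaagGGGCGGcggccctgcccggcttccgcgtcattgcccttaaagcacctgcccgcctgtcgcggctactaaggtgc
Zfp36l1, chr6:104668691-104668940, minus strand: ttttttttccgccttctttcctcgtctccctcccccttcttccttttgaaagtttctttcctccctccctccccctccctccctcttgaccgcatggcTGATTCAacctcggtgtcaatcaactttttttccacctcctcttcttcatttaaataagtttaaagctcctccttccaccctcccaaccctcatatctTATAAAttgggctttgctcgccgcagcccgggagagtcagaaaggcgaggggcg

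Each motif was searched on both strands, and its share is that of all 33469 promoters of the table in the same 250 bases. In Zfp36 the capitals hold the EGR motif GCGGGGGCG (in 2.45% of promoters), a serum response CArG box (in 1.5%) and GC boxes, GGGCGG (in 30.5%), of which the one nearest the start overlaps the CArG box by 1 base. In Zc3h12a they hold 5 GC boxes, and the window also has 1 short cyclic AMP motif, TGACG (in 18.2%), on the reverse strand. In Zfp36l1 they hold an AP-1 motif, TGANTCA (in 6.34%), and a TATA box, TATAAA (in 12.9%). No window of the 5 members had a match to the NF-kappa-B consensus (in 6.33%), the full cyclic AMP response element TGACGTCA (in 1.59%) or the STAT motif TTCNNNGAA (in 7.67%). The GC content was 65.2% in Zfp36, 69.2% in Zc3h12a and 50.4% in Zfp36l1, beside a median of 51.2% over all promoters. A match is a description of the letters and not evidence of binding.

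Values are log2 probe set values, so 1 unit is a 2-fold difference, and levels of different probe sets are not comparable with each other. Array medians lay between 7.34 and 7.41 and lower quartiles between 5.56 and 5.66. The lung label was borne out by the markers: the mean of the 11 measured of 12 lung epithelial markers was 12.91 to 13.47 on the 12 arrays. Some arrays also held transcripts of other tissue. The mean of the 19 measured of 20 cardiac muscle markers was high in all sham arrays (9.71 to 10.69) and highest in BD replicate 2 (11.7), while the remaining 8 arrays read 6.09 to 8.26. The mean of the 11 measured of 12 adipose markers followed the same split, with 8.44 to 9.41 in sham, 8.89 in BD replicate 2 and 6.28 to 7.1 elsewhere. The mean of the 10 measured of 13 heat shock genes was 12.98 in SEW replicate 2 and 10.68 to 11.08 in the other 11 arrays. These are tissue samples, so fewer cells of a type and less RNA per cell cannot be told apart.

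Of the 5 members, Zc3h12a varied most between the groups. The sham arrays read 9.98, 9.51 and 9.79, the BD arrays 10.45, 10.21 and 10.28, with 7.37, 7.84 and 6.62 in SEW and 11.19, 10.79 and 10.51 in BD/SEW. The 4 groups did not overlap: from the lowest they ran SEW (7.28 ± 0.62), sham (9.76 ± 0.24), BD (10.31 ± 0.12) and BD/SEW (10.83 ± 0.34; log2 mean ± SD, n = 3 each). How many of all genes separate the 4 groups in this way was not counted. All SEW values lay above the lower quartile of the arrays.

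Zfp36 had a narrower range and another order. Its level was 12.45, 12.22 and 12.5 in sham, 11.79, 12.05 and 12.06 in BD, 11.73, 11.87 and 11.62 in SEW, and 12.32, 12.28 and 12.21 in BD/SEW. From the lowest the groups ran SEW (11.74 ± 0.13), BD (11.97 ± 0.15), BD/SEW (12.27 ± 0.06) and sham (12.39 ± 0.15). SEW overlapped with BD, and BD/SEW overlapped with sham, but every SEW and BD array lay below every BD/SEW and sham array. For this split, too, the share over all genes was not counted.

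Zfp36l2 was split by brain death in its main probe set only. Its main probe set read 11.93, 11.51 and 11.79 in sham and 11.64, 11.67 and 11.5 in SEW, against 11.31, 11.33 and 10.93 in BD and 11.34, 11.24 and 11.14 in BD/SEW. All 6 arrays with brain death were below all 6 without it. The share of all genes with such a split was not counted, and Zfp36l2 did not pass in the main fit of any comparison. Sham and SEW overlapped, as did BD and BD/SEW.

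Zfp36l1 and Elavl1 overlapped between neighbouring groups throughout. Zfp36l1 read 13.09, 13.02 and 13.38 in sham, 13.14, 12.99 and 13.15 in BD, 12.58, 13.32 and 12.68 in SEW, and 13.01, 13.02 and 13.1 in BD/SEW. Elavl1 read 10.13, 10.38 and 10.44 in sham, 9.95, 9.93 and 10.31 in BD, 10.34, 10.99 and 10.19 in SEW, and 10.11, 10.28 and 10.2 in BD/SEW. In both genes SEW replicate 2, the array with the high heat shock genes, was far above the other SEW arrays. The part of that array in the SEW values was examined by leaving it out, as given with each comparison.

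**Figure D1:**
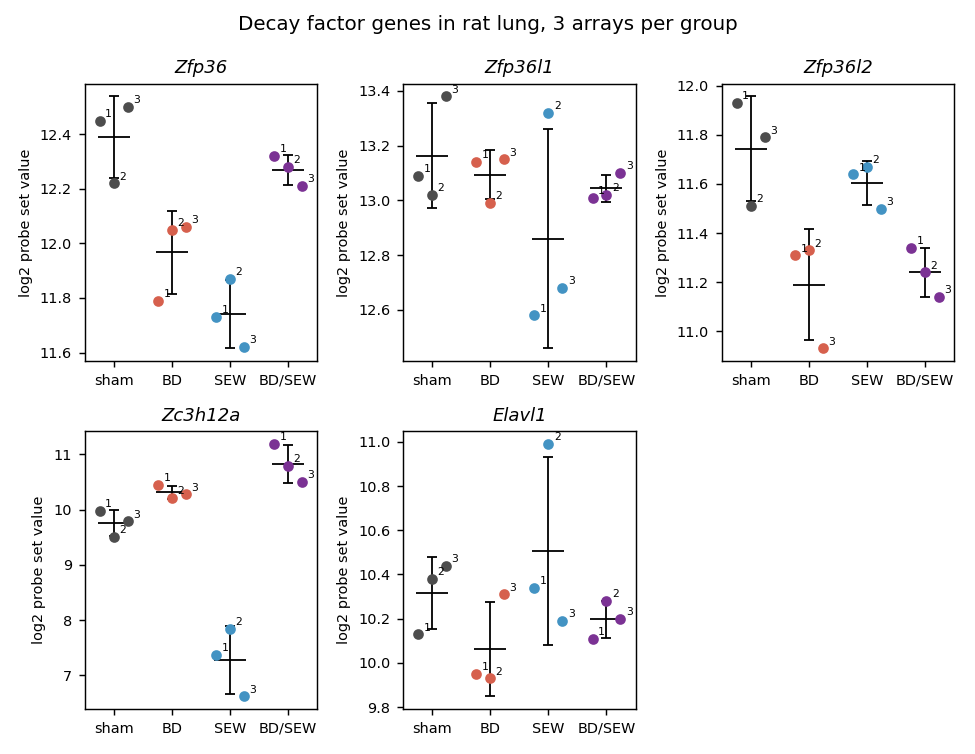
Each panel plots the log2 probe set value of 1 member (vertical axis, a scale per panel) by group, from sham through BD and SEW to BD/SEW. Points are arrays with their replicate number, and the bar and whiskers are the mean ± SD of 3 arrays. Zc3h12a falls to between 6.62 and 7.84 in SEW, and the brain-death arrays of Zfp36l2 lie below the others.

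SEW against sham asks what the agonist changes without brain death. Here 2 of the 5 members fell and 0 rose, where 2.43% of all genes fell and 5.84% were called in either direction (limma, adjusted p under 0.05 over 14217 genes). Zc3h12a fell by 2.48 ± 0.27 (log2 difference ± SE, n = 3 per group; adjusted p = 0.0014), which is 5.59-fold, and was called with each of the 6 compared arrays left out in turn. Zfp36 fell by 0.65 ± 0.11 (adjusted p = 0.0089), which is 1.57-fold, and was also called in all 6 of these fits. The arrays of both genes did not overlap, as was so for 27.1% of all genes. The cardiac marker means were lower in SEW (6.09 to 7.66) than in sham (9.71 to 10.69), without overlap. Cardiac content and group therefore cannot be told apart here, and a fit with the covariate does not separate them. With the mean of the cardiac markers as a covariate Zc3h12a still passed and fell by 2.79 ± 0.35 (adjusted p = 0.016). In that fit Zfp36 was at -0.60 ± 0.15 and no longer passed (adjusted p = 0.17), when 0.169% of all genes were called.

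The other 3 members did not pass in SEW against sham. Zfp36l2 differed by -0.14 ± 0.13 (adjusted p = 0.54) and Elavl1 by 0.19 ± 0.19 (adjusted p = 0.56). Zfp36l1 differed by -0.30 ± 0.17 (adjusted p = 0.28), and it passed without SEW replicate 2, at -0.53 ± 0.11 (adjusted p = 0.028). Without that array Elavl1 was at -0.05 ± 0.14 (adjusted p = 0.86).

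BD against sham asks what brain death changes. By limma 0 of the 5 members passed, where 0.591% of all genes were called. An unadjusted p under 0.05 was found for 2 members and for 11% of all genes. Zfp36l2 differed by -0.55 ± 0.13 (n = 3 per group; adjusted p = 0.099), Zfp36 by -0.42 ± 0.11 (adjusted p = 0.11) and Zc3h12a by 0.55 ± 0.27 (adjusted p = 0.49). These 3 genes did not overlap between the groups, nor did 15.7% of all genes. Zfp36l1 (-0.07 ± 0.17) and Elavl1 (-0.25 ± 0.19) overlapped. The 95% interval of Zc3h12a ran from -0.03 to 1.14 and that of Zfp36 from -0.65 to -0.19, so a p that misses the threshold does not show that these genes were the same in both groups. This comparison and SEW against sham share the sham arrays.

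The effect of brain death under the agonist is read from BD/SEW against SEW, a comparison with no array in common with BD against sham. It does share the SEW arrays with SEW against sham, and the interaction uses them too. A fall in SEW against sham and a rise in BD/SEW against SEW are therefore not independent results. Here 2 of the 5 members rose and 0 fell, where 4.75% of all genes rose and 9.79% were called. Zc3h12a rose by 3.55 ± 0.27 (n = 3 per group; adjusted p = 3.1e-05), which is 11.7-fold and the 12th smallest p of 14217 genes. Zfp36 rose by 0.53 ± 0.11 (adjusted p = 0.0085), which is 1.44-fold. Both were called with each compared array left out and with the cardiac covariate.

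Zfp36l2 lay in the other direction in BD/SEW against SEW, at -0.36 ± 0.13 (adjusted p = 0.11), without passing. Its arrays did not overlap, as in 31.8% of all genes. Elavl1 differed by -0.31 ± 0.19 (adjusted p = 0.36). Zfp36l1 differed by 0.18 ± 0.17 (adjusted p = 0.57), and it passed without SEW replicate 2, at 0.41 ± 0.11 (adjusted p = 0.04).

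**Figure D2:**
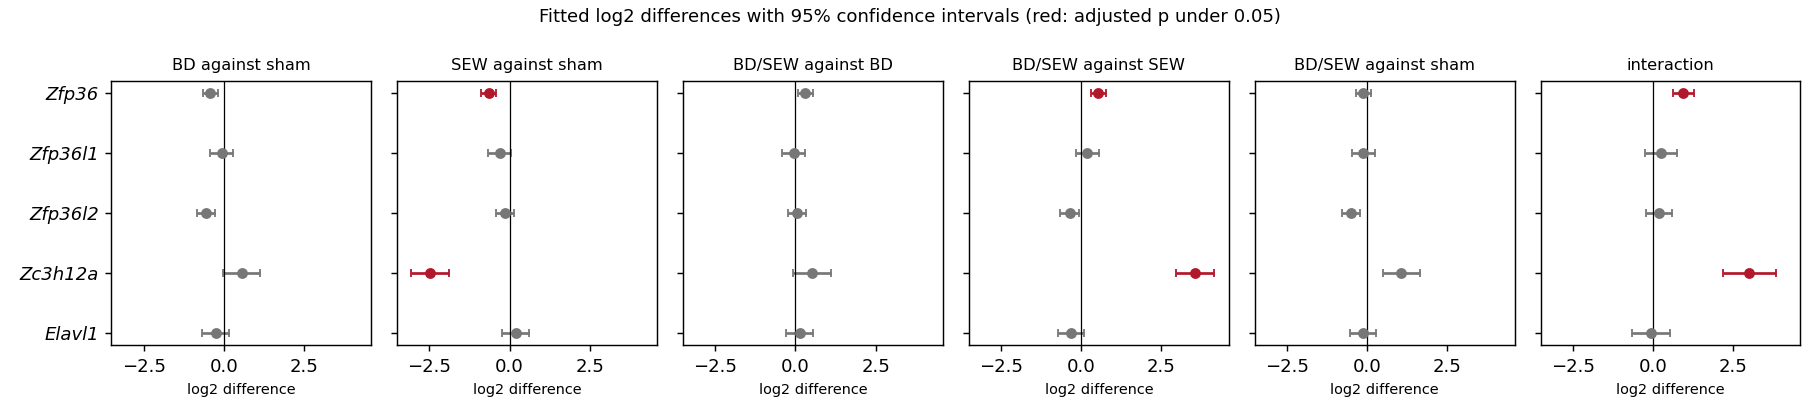
Fitted log2 differences (horizontal axis) of the 5 members in the 5 comparisons and the interaction, with 95% confidence intervals from limma over 12 arrays. Red marks an adjusted p under 0.05: Zfp36 and Zc3h12a are red in 2 of the comparisons, SEW against sham and BD/SEW against SEW, as well as in the interaction.

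The interaction is the brain-death difference with the agonist less that without it. It was positive and called for 2 of the 5 members, where 0.851% of all genes were called in that direction and 0.95% in either. For Zc3h12a it was 3.0 ± 0.38 (n = 3 per group; adjusted p = 0.0056), made of 3.55 with the agonist and 0.55 without it, and it was called in all 12 fits with an array left out. For Zfp36 it was 0.95 ± 0.15 (adjusted p = 0.014), made of a rise of 0.53 with the agonist and a difference of -0.42 without it. The Zfp36 call was lost without BD/SEW replicate 1 (adjusted p = 0.055) or BD/SEW replicate 2 (adjusted p = 0.058). Zfp36l1 (0.25 ± 0.23), Zfp36l2 (0.19 ± 0.19) and Elavl1 (-0.06 ± 0.27) did not pass.

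The effect of the agonist after brain death is read from BD/SEW against BD. By limma 0 of the 5 members passed, where 0.0141% of all genes were called. An unadjusted p under 0.05 was found for 1 member and for 5.44% of all genes. Zfp36 differed by 0.30 ± 0.11 (n = 3 per group; adjusted p = 0.81) and Zc3h12a by 0.52 ± 0.27 (adjusted p = 0.92). Both were higher in BD/SEW without overlap, and 12.4% of all genes did not overlap in either direction. Zfp36l1, Zfp36l2 and Elavl1 differed by -0.05 ± 0.17, 0.05 ± 0.13 and 0.13 ± 0.19.

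BD/SEW and sham animals were compared to place the treated brain-death animals relative to controls. By limma 0 of the 5 members passed, where 2.87% of all genes were called. An unadjusted p under 0.05 was found for 2 members and for 17.5% of all genes. Zc3h12a was higher by 1.07 ± 0.27 (n = 3 per group; adjusted p = 0.058), and Zfp36l2 differed by -0.50 ± 0.13 (adjusted p = 0.069). Both were without overlap, as 25.9% of all genes were. Zc3h12a passed in 6 of 24 alternative fits, among them without SEW replicate 2 (adjusted p = 0.025), without SEW replicate 3 (adjusted p = 0.022) and with the replicate number as a block (adjusted p = 0.044). The SEW arrays are not part of this comparison. Zc3h12a was called in 0 of the 6 fits without a compared array and not with the cardiac covariate, and its adjusted p over the alternatives ran from 0.005 to 0.58. Zfp36l2 passed in 3 of the 24, with array weights (adjusted p = 0.015), without BD replicate 3 (adjusted p = 0.048) and without sham replicate 2 (at -0.62 ± 0.13, adjusted p = 0.04987). Zfp36 was near its sham level, at -0.12 ± 0.11 (adjusted p = 0.61; 95% interval -0.35 to 0.11).

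Zfp36l1 and Zfp36l2 differed in their values with and without brain death. For each array the difference of 2 paralogs was taken, and its change with brain death was averaged over the animals without and with agonist and tested by a two-sided exact permutation test within these strata (3 pairs, 400 permutations each). Zfp36l1 minus Zfp36l2 was higher with brain death by 0.52 (0.48 without and 0.55 with agonist), with an exact p = 0.005, the smallest this design can give, and p = 0.015 adjusted over the 3 pairs. Without any 1 of the 3 BD/SEW arrays the adjusted p was 0.0525, and with the mean of all probe sets of a gene it was 0.225. Zfp36 minus Zfp36l2 was higher by 0.51 (exact p = 0.035, adjusted p = 0.0525), at 0.13 without and 0.89 with agonist, and leaving out BD replicate 1 gave an adjusted p of 0.0075. For Zfp36 minus Zfp36l1 the values were -0.35 without and 0.35 with agonist, so that the mean was near 0 (exact p = 0.995).

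Zfp36l2 and Elavl1 had further probe sets. In Zfp36l2 the other 2 were dim: 1 read 5.83 to 6.21 on all arrays and the other 5.51 to 7.62, with 5.51 in sham replicate 3 beside 7.52 and 7.49 in the other sham arrays. In BD against sham they differed by -0.15 ± 0.09 and -0.10 ± 0.44, and neither passed in any comparison. Unlike the main probe set, neither separated all arrays with brain death from all arrays without it. In Elavl1 the second probe set read 9.28 to 10.74 on 11 arrays and 6.34 on BD/SEW replicate 1, and the third 5.65 to 6.02. No Elavl1 probe set passed in any comparison, and the value of 6.34 was not seen in its main probe set, which read 10.11 on that array. Zfp36, Zfp36l1 and Zc3h12a had 1 probe set each, so no second measurement of them exists on the array.

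The other RNA-binding proteins that act on cytokine messages were mostly not called. Of the 15 measured of 20 genes, 1 fell in SEW against sham, where 5.84% of all genes were called. In BD/SEW against SEW 1 rose and 1 fell, where 9.79% of all genes were called. Arid5a, which stabilises Il6 mRNA against Regnase-1, was 10.26, 10.64 and 10.89 in sham, 10.58, 10.65 and 11.27 in BD, 9.09, 10 and 8.67 in SEW and 11.33, 11.3 and 11.09 in BD/SEW. Its SEW arrays were the lowest 3 of the 12, and the share of all genes for which this holds was not counted. It fell by 1.34 ± 0.30 in SEW against sham (n = 3 per group; adjusted p = 0.029, called in 2 of the 6 leave-one-out fits). It rose by 1.99 ± 0.30 in BD/SEW against SEW (adjusted p = 0.0018, called in 6 of 6). Tia1, a translational silencer of Tnf mRNA, fell by 0.65 ± 0.17 in BD/SEW against SEW (adjusted p = 0.036) but was called in 0 of the 6 fits. The list median was -0.11 in SEW against sham and 0.05 in BD/SEW against SEW, beside 0.02 and -0.01 over all genes.

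The machinery that degrades the bound messages was called for few genes. Of 22 measured genes of deadenylation and decapping, 1 fell in SEW against sham, Btg1, an activator of deadenylation (-0.28 ± 0.07, adjusted p = 0.045, called in 2 of 6 fits). By limma 0 were called in BD/SEW against SEW, and 5 of the 22 had an unadjusted p under 0.05, as did 23.8% of all genes. The list medians were 0.00 and -0.15. Of 10 measured RNA exosome genes, which degrade messages from the tail end, 9 were higher in SEW than in sham (median 0.30, beside 0.02 over all genes) and 1 passed. The gene that passed was Exosc7, which rose by 0.39 ± 0.10 (adjusted p = 0.045, called in 0 of 6 fits). With the cardiac covariate Exosc7 was at 0.25 and did not pass (adjusted p = 0.46). It fell by 0.39 ± 0.10 in BD/SEW against SEW (adjusted p = 0.028, called in 1 of 6 fits). The mean of the 10 genes was 8.7 to 8.71 in the SEW arrays and 8.38 to 8.55 in the other 9, without overlap. This separation of the mean was not tested.

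Kinases and adaptors acting on the decay factors are those of the p38 pathway, whose kinase MK2 phosphorylates tristetraprolin, and those of the signal that leads to cleavage of Regnase-1. Of 16 measured genes, 2 fell in SEW against sham, where 5.84% of all genes were called. In BD/SEW against SEW 1 rose and 1 fell, where 9.79% of all genes were called. The list medians were -0.05 and 0.08, so the list as a whole lay close to all genes. Dusp1, the phosphatase that switches p38 off, was 13.66, 13.53 and 13.29 in sham and 13.68, 13.83 and 13.7 in SEW, against 12.84, 12.83 and 12.79 in BD and 13.21, 13.05 and 12.9 in BD/SEW. All arrays with brain death were below all arrays without it, a split whose share over all genes was not counted. It fell by 0.67 ± 0.10 in BD against sham (adjusted p = 0.019, called in 2 of 6 fits) and by 0.68 ± 0.10 in BD/SEW against SEW (adjusted p = 0.0018, called in 6 of 6). In BD/SEW against sham it fell by 0.44 ± 0.10 (adjusted p = 0.047, called in 1 of 6).

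Bcl10, an adaptor of the MALT1 protease that cleaves Regnase-1, fell by 0.55 ± 0.10 in SEW against sham (adjusted p = 0.017, called in all fits but that without sham replicate 2). It rose by 0.61 ± 0.10 in BD/SEW against SEW (adjusted p = 0.0037, called in 6 of 6). Its arrays read 10.68 to 10.74 in SEW and 11.13 to 11.56 in the other 9, a split whose share over all genes was not counted. Map2k3, which activates p38, fell by 0.62 ± 0.15 in SEW against sham (adjusted p = 0.037, called in 2 of 6 fits). With the cardiac covariate these SEW against sham differences were of similar size but did not pass. Bcl10 was at -0.62 (adjusted p = 0.15), Map2k3 at -0.59 (adjusted p = 0.31), Btg1 at -0.26 (adjusted p = 0.35) and Arid5a at -1.61 (adjusted p = 0.18).

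**Figure D3:**
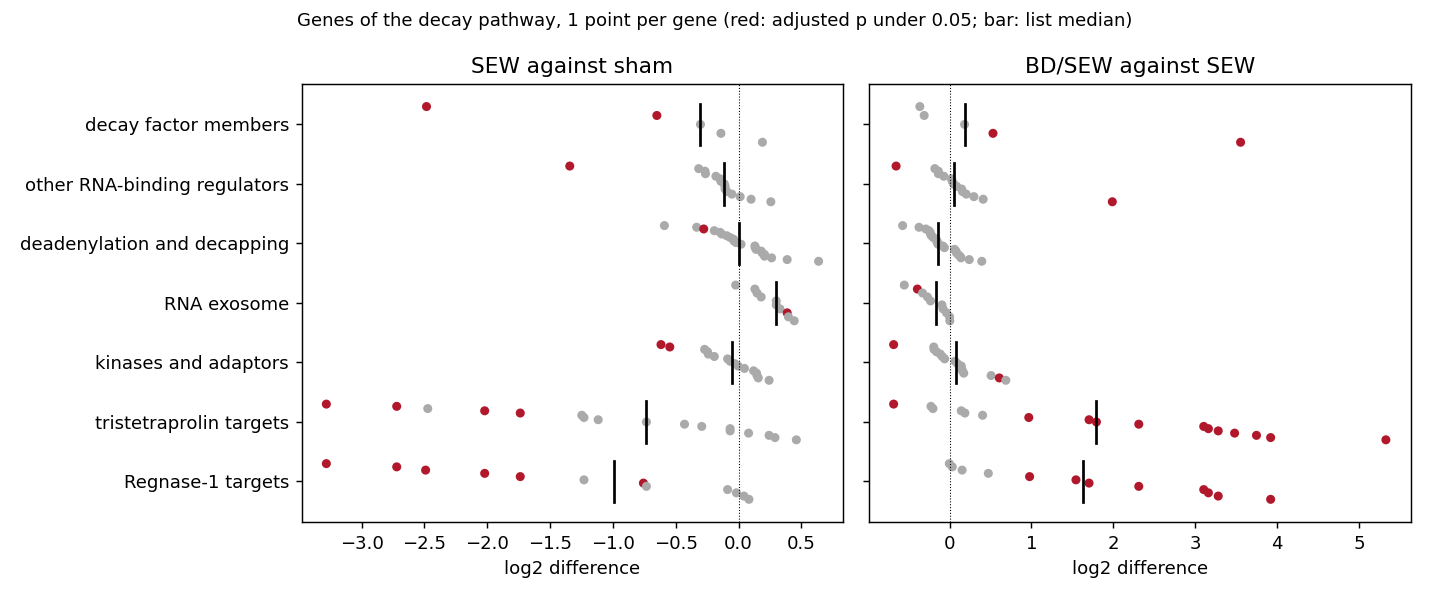
Log2 differences (horizontal axis) in SEW against sham and in BD/SEW against SEW, 1 point per measured gene, with genes of each list sorted by value. Red marks an adjusted p under 0.05 and the vertical bar the list median. The medians of the target lists are -0.73 and -0.99 on the left and 1.79 and 1.62 on the right, and those of the RNA exosome are 0.30 and -0.16.

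In SEW against sham and in BD/SEW against SEW the medians of the target lists lay on the same side as Zc3h12a and Zfp36. Both comparisons use the same SEW arrays. In BD/SEW against BD Zfp36 was also on the side of the tristetraprolin targets, at 0.30 beside a median of 0.73. The same held in the interaction, at 0.95 beside 1.8. It did not hold in BD against sham, where Zfp36 was at -0.42 beside a median of 0.20. Nor did it hold in BD/SEW against sham, at -0.12 beside 0.67. Of 17 known targets of tristetraprolin, 4 fell in SEW against sham, where 2.43% of all genes fell and 5.84% were called. In BD/SEW against SEW 11 rose and 1, Dusp1, fell, where 4.75% of all genes rose and 9.79% were called. The list medians were -0.73 and 1.79, beside 0.02 and -0.01 over all genes. Of the 12 measured of 13 known targets of Regnase-1, 6 fell in SEW against sham and 8 rose in BD/SEW against SEW, with medians of -0.99 and 1.62. The lists share 6 genes (Il6, Il1b, Ptgs2, Cxcl1, Cxcl2 and Nfkbiz), and both hold NF-kappa-B target genes. The 4 tristetraprolin targets called in SEW against sham were Nfkbiz, Cxcl1, Il6 and Cxcl2. All are shared genes, so this list added no call of its own there.

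Tnf, the cytokine whose message defined tristetraprolin as a decay factor, was 8.16, 7.72 and 7.65 in sham, 9.09, 9.08 and 9.19 in BD, 6.55, 7.49 and 5.75 in SEW, and 10.03, 10.45 and 10.55 in BD/SEW. The 4 groups ran in the same order as for Zc3h12a and did not overlap, a separation whose share over all genes was not counted. It rose by 3.75 ± 0.34 in BD/SEW against SEW (adjusted p = 9.4e-05) and differed by 1.28 ± 0.34 in BD against sham (adjusted p = 0.13), with an interaction of 2.47 ± 0.48 (adjusted p = 0.039). Nfkbiz, an atypical inhibitor of NF-kappa-B whose mRNA Regnase-1 cleaves, was 12.22, 11.83 and 12.1 in sham and 12.19, 12.36 and 12.2 in BD. It was 10.07, 11.22 and 9.65 in SEW and 12.72, 12.59 and 12.56 in BD/SEW. It fell by 1.74 ± 0.30 in SEW against sham (adjusted p = 0.011) and rose by 2.31 ± 0.30 in BD/SEW against SEW (adjusted p = 0.00076).

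Il6 was 8.23, 7.99 and 10.04 in sham, 6.66, 7.91 and 7.41 in BD, 4.57, 7.28 and 4.57 in SEW, and 10.04, 9.57 and 8.57 in BD/SEW. In SEW only replicate 2 was above the lower quartile of the arrays, so the size of its differences against SEW is uncertain. It fell by 3.28 ± 0.74 in SEW against sham (adjusted p = 0.03, called in 2 of 6 fits). Csf3, the granulocyte growth factor, had its highest mean in sham, at 8.04, 8.45 and 9.3, against 6.79, 7.05 and 6.74 in BD, 6.44, 6.08 and 5.8 in SEW and 8.19, 7.57 and 7.19 in BD/SEW. Like Zfp36, Csf3 was lower in both BD and SEW than in sham. It fell by 1.74 ± 0.32 in BD against sham (adjusted p = 0.037, called in 2 of 6 fits) and by 2.49 ± 0.32 in SEW against sham (adjusted p = 0.0035, called in 6 of 6). With the cardiac covariate Csf3 still passed in SEW against sham (adjusted p = 0.048), whereas Nfkbiz at -1.74 (adjusted p = 0.15), Cxcl1 at -2.01 (adjusted p = 0.19) and Il6 at -3.21 (adjusted p = 0.28) kept their size and did not pass.

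In BD/SEW against sham, 5 of the 17 tristetraprolin targets rose and 1 fell, where 2.87% of all genes were called. Tnf rose by 2.50 ± 0.34 (adjusted p = 0.0035), Ccl3, a chemokine of monocytes and neutrophils, by 2.36 ± 0.40 (adjusted p = 0.012), and Ier3, an early stress response gene, by 1.36 ± 0.30 (adjusted p = 0.036, called in 1 of 6 fits). Of the Regnase-1 targets 1 rose, Nfkbid, another atypical inhibitor of NF-kappa-B, by 1.02 ± 0.17 (adjusted p = 0.01). Ccl3 and Nfkbid were not called without BD/SEW replicate 2. With the cardiac covariate none of these named calls passed: Tnf was at 2.46 (adjusted p = 0.096), Ccl3 at 2.42 (adjusted p = 0.17), Nfkbid at 0.98 (adjusted p = 0.18), Ier3 at 1.13 (adjusted p = 0.45) and Dusp1 at -0.46 (adjusted p = 0.38). The cardiac means of BD/SEW (6.29 to 8.26) lay below all those of sham, so this fit does not separate cardiac content from group either. In BD against sham 1 of each list was called, Dusp1 and Csf3, both of which fell, where 0.591% of all genes were called. By limma 0 of either list were called in BD/SEW against BD, where 0.0141% of all genes were. An unadjusted p under 0.05 was found for 7 of the 17 and 5 of the 12, and for 5.44% of all genes. There 16 of the 17 tristetraprolin targets were higher (median 0.73).

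**Figure D4:**
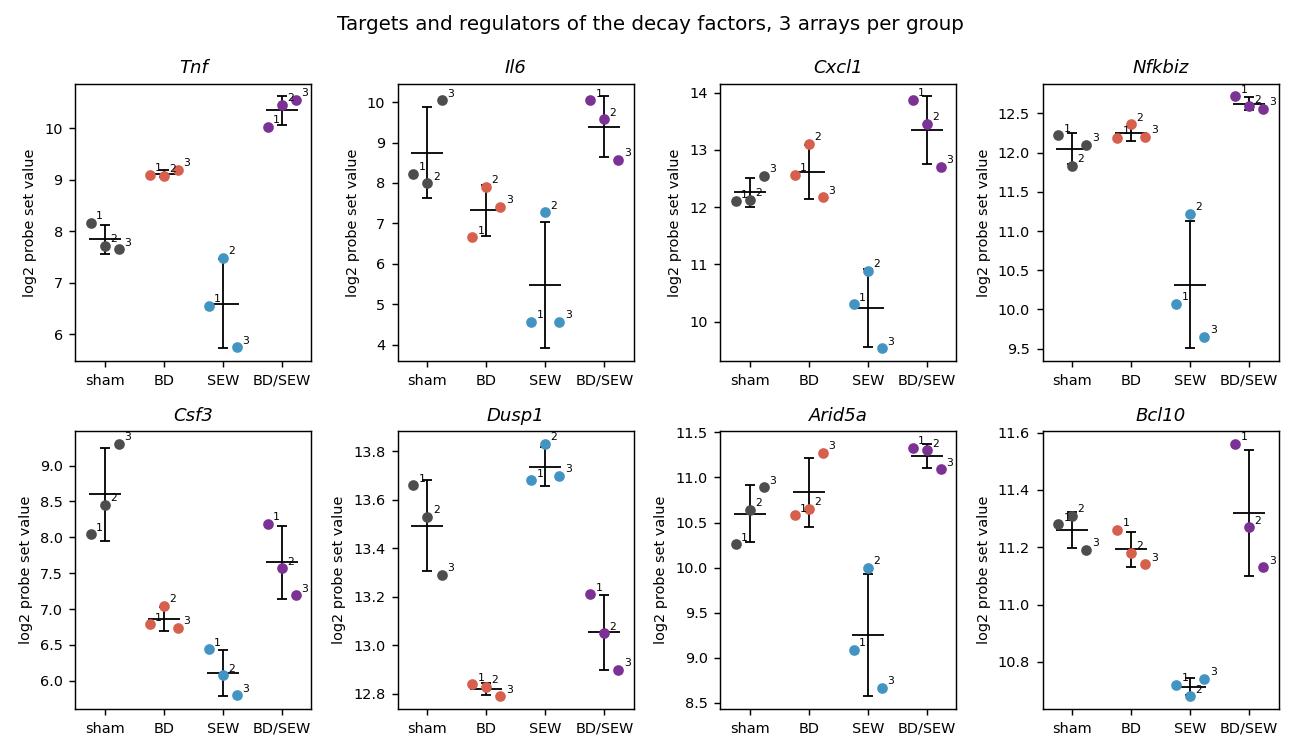
Log2 probe set values (vertical axis, a scale per panel) of 8 targets and regulators by group, from sham through BD and SEW to BD/SEW, with arrays as numbered points and the mean ± SD of 3 arrays. SEW replicate 2 is the highest SEW array for Tnf, Il6, Cxcl1, Nfkbiz and Arid5a, and Dusp1 is lower in all arrays with brain death.

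By group median, the mean of the neutrophil markers was lowest in SEW (8.92) and highest in BD/SEW (11.02), as for Zc3h12a and both target lists. It was 10.2 in both sham and BD. Of the 9 measured markers, 2 fell in SEW against sham, where 5.84% of all genes were called. In BD/SEW against SEW 4 of the 9 rose, where 9.79% of all genes were called. The mean of 9 measured of 12 markers was 9.59 to 10.56 in sham, 10.17 to 10.65 in BD, 8.7 to 10.3 in SEW and 10.95 to 11.43 in BD/SEW. The SEW value of 10.3 was that of replicate 2, against 8.7 and 8.92 in the others, and lay within the sham range. The mean of 6 measured of 8 macrophage markers was 8.88 to 9.6 in sham, 9.28 to 9.42 in BD, 9.07 to 9.78 in SEW and 9.38 to 9.73 in BD/SEW. Zc3h12a in SEW replicate 2 was 7.84, the highest SEW value and below the 9 arrays of the other groups. The part of neutrophils and macrophages in the results was not tested.

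The genes most like each member were taken by Pearson correlation over the 12 arrays among 10661 genes with a mean above the 25th percentile. These correlations describe 12 arrays that share 4 groups. For Zc3h12a they were Relb (r = 0.989, Spearman rho = 0.986), Bcl3 (r = 0.986), Nfkb2 (r = 0.984), Gas7 (r = 0.981) and Slc2a3 (r = 0.980). Relb and Nfkb2 encode NF-kappa-B subunits, Bcl3 a nuclear cofactor of them and Slc2a3 a glucose transporter. Over the 9 arrays without SEW the r of these 5 genes was 0.896 to 0.918.

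For Zfp36 the most similar genes were LOC100910424 (r = 0.931), Il6 (r = 0.900, Spearman rho = 0.930), Csf3 (r = 0.896), Itpkc (r = 0.892) and Dtx2 (r = 0.891). Without the 2 arrays farthest from the Zfp36 median the r of Il6 was 0.820 and that of Csf3 0.857. For Zfp36l2 they were Urb2 (r = 0.905), Lama4 (r = 0.879), Snrpd3, Coq10b and Dbt, with r from 0.690 to 0.904 without the 2 farthest arrays. For Elavl1 they were Dnajb11 (r = 0.929), Macir, Cnbd2, Polg2 and Dnajb2, of which Dnajb11 and Dnajb2 encode co-chaperones, and r fell to between 0.564 and 0.815 without the 2 farthest arrays. For Zfp36l1 they were Gga3 (r = 0.876), Hnrnpm, Gimap4, Rasgef1a and Iws1, and r fell to between 0.509 and 0.710.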

How the data were processed

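The deposited log2 values of 31042 probe sets on 12 arrays were made by the authors from Affymetrix arrays hybridised with biotinylated cRNA from 6 ug of total RNA, per the labels' protocols. The submitters' processing notes name RMA, MAS5 and affy; which of them made these values is not given in the sources used here. At any rank the spread between arrays was 0.22 log2 units or less. The number of arrays limits the precision.

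Symbols came from the array's annotation (1 symbol for 20826 probe sets, several for 436, none for 9780), of which 20812 matched RefSeq (GRCr8). The probe set with the highest mean stood for a gene, which left 14217 genes. Limma 3.58.1 (R 4.3.3) fitted 1 mean per group over all 12 arrays with a variance trend. P-values were two-sided and adjusted by Benjamini-Hochberg over all genes, with calls at an adjusted p below 0.05. The fit was tested on simulated data with changes added to known genes. In BD/SEW against SEW it found 50% of 1.5-fold and 84.3% of 2-fold changes. For the interaction it found 21.7% and 58.2%. A gene that did not pass may therefore still have changed by such amounts.

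The members, the gene lists and the tests were chosen with earlier results of these data known. Named are all members, up to 4 called genes per list and comparison by adjusted p, and the 5 genes most like each member. Alternatives were other arrays, normalizations, filters, probe set rules, thresholds, a replicate block and a cardiac covariate.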

Additional observations from a re-analysis of the deposited data

Results flagged for a closer look

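Results were singled out where the brain-death difference itself differed between animals with and without the agonist, by the interaction term of limma over all genes. Among the members these were Zc3h12a, at 3.0 log2 units (adjusted p = 0.0056), and Zfp36, at 0.953 (adjusted p = 0.014). Among the named targets they were Csf3 at 3.28 (adjusted p = 0.0078), Cxcl1 at 2.75 (adjusted p = 0.036), Il6 at 5.35 (adjusted p = 0.039), Nfkbiz at 2.11 (adjusted p = 0.041) and Tnf at 2.47 (adjusted p = 0.039). With 1 of the 12 arrays left out, Csf3 was called in 12 fits, Cxcl1 in 3, Il6 in 2, Nfkbiz in 1 and Tnf in 2. In Zfp36, Il6 and Csf3 the brain-death difference was below 0 without the agonist and above 0 with it.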

How the results depend on the processing

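Over the 30 differences of a member in a comparison, 684 of 715 alternative values kept direction and side of the threshold. The count of members called was 0 under every alternative run in BD against sham and in BD/SEW against BD, and 2 or 3 in BD/SEW against SEW. In SEW against sham it was 1 with the cardiac covariate, 3 without SEW replicate 2 and with 3 arrays left out together, and 2 otherwise. In BD/SEW against sham, where 0 were called, fitting the compared arrays alone gave 1, and it was 1 with 3 arrays left out together (BD 2, SEW 2, sham 3) and 2 with array weights, and 0 to 1 with single arrays left out. In the interaction it was 1 at an adjusted p under 0.01 and 1 to 2 with single arrays left out. The fit with compared arrays only gives no separate interaction value.

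Same-numbered arrays of different groups correlated by -0.186 to 0.375 in their deviations from the group means (8 of 18 pairs over 0.1). For differently numbered arrays the range was -0.429 to 0.288. These values do not exclude an effect shared by arrays of the same number. The numbers were not taken as pairs because the labels do not tie them to animals, days or batches. With the replicate number as a block 1 member was called in BD/SEW against sham, and the block changed no other count of members called.

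The reversed values were all of differences that did not pass. Zfp36l1 in BD against sham was 0.028 with array weights, 0.09 with 3 arrays left out together and -0.142 to 0.038 with single arrays left out. With the mean of all probe sets of a gene, Zfp36l2 was 0.146 in SEW against sham and -0.112 in the interaction, and Elavl1 -0.238 in BD/SEW against BD. With single arrays left out, Elavl1 was -0.052 to 0.348 in SEW against sham and -0.215 to 0.185 in the interaction, and Zfp36l2 -0.08 to 0.12 in BD/SEW against BD. The Elavl1 interaction was also 0.103 with array weights, 0.02 with the cardiac covariate and 0.057 with 3 arrays left out together. Of the paralog differences with brain death, Zfp36l1 minus Zfp36l2 was 0.379 with the mean of all probe sets and 0.436 to 0.613 with single arrays left out. Zfp36 minus Zfp36l2 was then 0.423 to 0.586 and Zfp36 minus Zfp36l1 -0.086 to 0.064. The cause of these changes was not tested.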
